A study of Homo sapiens with 6 samples.

Results

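The genes described are 26 genes of cholesterol synthesis, of cholesterol movement inside the cell and of the control of both by SREBP proteins. They were chosen by gene symbol from a table of 58825 genes, and every one of the 26 passed the filter on low values. Messenger RNA was sequenced in T24, a human bladder cancer cell line, kept in culture medium with fetal bovine serum. 3 libraries came from cells with shDLGAP5-1, a short hairpin RNA against DLGAP5, which encodes a spindle protein of mitosis, and 3 from cells with the control hairpin shNC-1, whose genotype label is WT. The labels name 1 hairpin against DLGAP5 and no time after its delivery. They name no separate cultures within a group, and each p-value therefore reflects the spread among these libraries alone, which may be technical. The values are FPKM, fragments per kilobase of transcript and per unit of library size, a unit read off the values since the table names none.

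Cells build cholesterol from acetyl-CoA through mevalonate, isoprenoid diphosphates, squalene and lanosterol, and a further series of enzymes in the endoplasmic reticulum turns lanosterol into cholesterol. SREBP2 (SREBF2) and SREBP1 (SREBF1) are transcription factors held in that membrane by SCAP and the INSIG proteins when sterols are plentiful. When sterols run low, SCAP escorts the SREBPs to the Golgi, where proteases release them to switch on the pathway. INSIG1 is itself an SREBP target, so the brake is made together with the enzymes.

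DLGAP5 stood at 5.03, 4.0 and 7.51 FPKM in the shDLGAP5-1 libraries, against 33.0, 32.7 and 29.7 FPKM in the shNC-1 libraries, in the direction the labels give (exact two-sided permutation p = 0.1, the smallest that 3 against 3 libraries allow). Totals ran from 431491 to 487559 FPKM in shDLGAP5-1 and from 413001 to 435077 FPKM in shNC-1. KRT7, a keratin of urothelium, stood between 566 and 855 FPKM. The 7 epithelial markers summed to 1155 to 1446 FPKM in shDLGAP5-1 and 1284 to 1533 FPKM in shNC-1, nearly all of it from KRT7, KRT8 and KRT18. CDH1, the epithelial cadherin, did not exceed 0.17 FPKM in any library, EPCAM did not exceed 1.185 FPKM and CLDN4 did not exceed 1.22 FPKM. Among these markers the keratin KRT19 fell, with 10.6, 11.1 and 10.6 FPKM in shDLGAP5-1 and 17.8, 17.96 and 20.9 FPKM in shNC-1 (limma adjusted p = 0.00438). SERPINA1, from the hepatocyte list and nearly all of its sum, rose, with 88.3, 79.9 and 53.6 FPKM in shDLGAP5-1 and 16.96, 17.9 and 20.4 FPKM in shNC-1 (limma adjusted p = 0.00126). The part of either change in the sterol genes was not tested. The library shDLGAP5-1 replicate 3 stood apart in leukocyte markers. Its 13 leukocyte markers summed to 718 FPKM, of which LYZ, lysozyme, made up 686, while the sum was 8.84 to 17.0 FPKM in the other shDLGAP5-1 libraries and 8.02 to 31.1 FPKM in shNC-1. In all libraries 5 of these 13 markers, among them the T cell marker CD3E, were listed at 0. Of 5 endothelial markers PECAM1, which leukocytes carry too, stood at 8.45 FPKM in this library and at no more than 0.39 FPKM in any other, while CDH5, VWF and TEK were listed at 0 in it. The part of this library's other RNA in the sterol genes was not tested, and values without it stand beside the members whose call it changes. In shNC-1 replicate 1, 7 fibroblast markers summed to 6.22 FPKM, against 1.385 to 2.99 FPKM in the other libraries. COL1A2 stood at 1.66 and DCN at 1.52 FPKM in it, and at no more than 0.054 and 0.063 FPKM elsewhere. LYZ stood at 21.1 FPKM in shNC-1 replicate 3. The part of these transcripts in the sterol genes was not tested either.

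Sterol genes were lower more often than higher in shDLGAP5-1 cells. Of the 26 genes 9 fell and 1 rose, by limma-trend on log2(FPKM + 1) with Benjamini-Hochberg adjustment over all 12714 genes tested and a threshold of 0.05. The 9 that fell were ACAT2, HMGCS1, MVK, SQLE, LSS, CYP51A1, NSDHL, INSIG1 and NPC1, and the 1 that rose was TM7SF2. Over all genes tested 24.8% were called, 9.52% lower and 15.3% higher, so the members' share called lower, 34.6%, was above the background and their single rise below it. In 13 members (50%) every shDLGAP5-1 library lay under every shNC-1 library, against 18.3% of all genes tested, and in 3 every shDLGAP5-1 library lay above, against 25.6%. The members' median log2 fold change was −0.23, beside 0.03 over all genes tested. Library by library, the median deviation of the members from the shNC-1 mean was −0.31, −0.19 and −0.26 in shDLGAP5-1 replicates 1 to 3 and −0.08, 0.02 and −0.02 in shNC-1 replicates 1 to 3. In bulk RNA, fewer cells with a transcript and less of it per cell cannot be told apart.

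The number of falls depended on the libraries and on scaling. 4 fell (15.4%) without shNC-1 replicate 2 or 3, and 5 (19.2%) without shNC-1 replicate 1 or shDLGAP5-1 replicate 2. 6 fell (23.1%) without shDLGAP5-1 replicate 1. 9 fell (34.6%) without shDLGAP5-1 replicate 3, with FDFT1 called in place of HMGCS1. The share of all genes called lower changed too. It was 4.16%, 3.56% and 5.43% without shNC-1 replicates 1, 2 and 3, and 7.83%, 5.71% and 10.7% without shDLGAP5-1 replicates 1, 2 and 3. The rises numbered 2 without shDLGAP5-1 replicate 3, when MVD joined TM7SF2, and 2 without shNC-1 replicate 2, when INSIG2 did. In these fits 12.1% and 7.01% of all genes were called higher. Without the filter on low values 4 fell (15.4%, against 2.45% of all genes then tested). The calls of HMGCS1, MVK, SQLE, LSS and INSIG1 were lost in that fit. Median-ratio scaling, which also moved the median of all genes by −0.11, gave 11 falls and 1 rise, with 15.1% of all genes called lower. Measured from the median of all genes, the members' median was −0.27 as reported and −0.28 with that scaling.

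**Figure D1:**
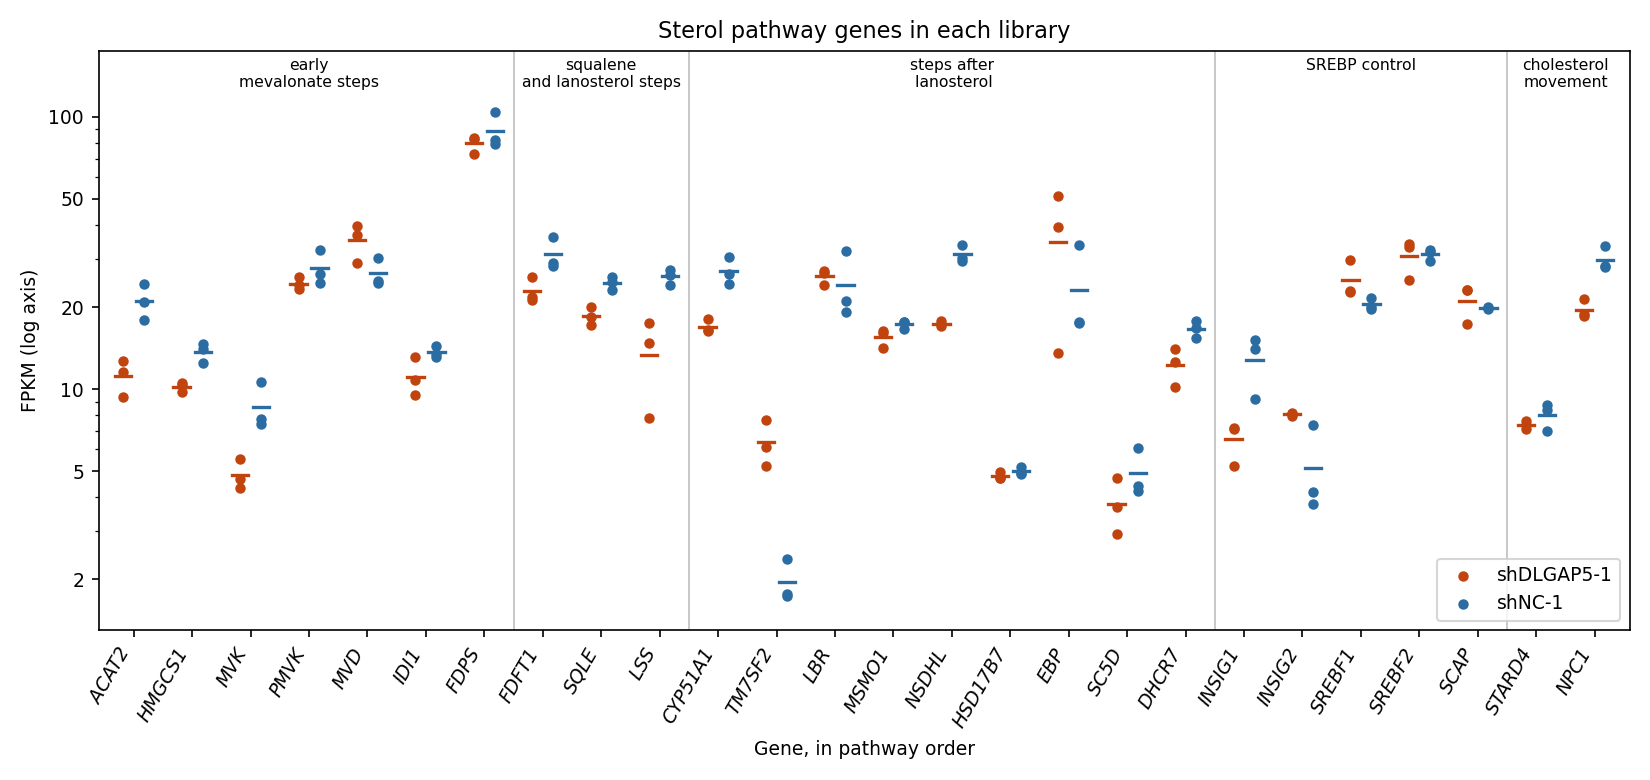
FPKM (log axis) of the 26 sterol genes in pathway order, with 1 point per library and a bar at the mean of 3 libraries, shDLGAP5-1 in red and shNC-1 in blue. TM7SF2 lay between 5.22 and 7.73 FPKM in shDLGAP5-1 and between 1.73 and 2.38 FPKM in shNC-1, while NSDHL lay between 17.0 and 17.9 FPKM in shDLGAP5-1 and between 29.5 and 34.0 FPKM in shNC-1.

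The early steps, from acetyl-CoA to farnesyl diphosphate, held 3 falls among 7 enzymes and no rise. ACAT2, the cytosolic thiolase that joins acetyl-CoA units, had 11.6, 9.34 and 12.7 FPKM in shDLGAP5-1 libraries, against 17.9, 20.9 and 24.2 FPKM in shNC-1 libraries. All shDLGAP5-1 values lay under all shNC-1 values, and ACAT2 fell by 0.85 on the log2 scale (standard error 0.16, limma adjusted p = 0.00992). ACAT2 shares 558 bases with TCP1, a chaperonin subunit gene on the other strand that averaged 60.9 FPKM in shDLGAP5-1 and 108 FPKM in shNC-1. Shared bases, here and below, are those of whole gene spans, introns included. The use of strand in counting is not given in the sources used here. HMGCS1, the synthase of HMG-CoA, stood at 9.73, 10.6 and 10.3 FPKM in shDLGAP5-1 and at 14.1, 14.6 and 12.5 FPKM in shNC-1. The groups did not overlap and the fall was small, 0.39 on the log2 scale (limma adjusted p = 0.0379), and its call was lost without any 1 of the 6 libraries. Without shDLGAP5-1 replicate 3 the HMGCS1 log2 fold change was −0.40 (limma adjusted p = 0.0612). MVK, mevalonate kinase, had 4.34, 4.68 and 5.55 FPKM in shDLGAP5-1 against 7.76, 7.42 and 10.6 FPKM in shNC-1, a log2 fold change of −0.70 (limma adjusted p = 0.0210). The highest MVK value was that of shNC-1 replicate 3. MVK shares 326 bases with MMAB on the other strand (9.52 FPKM in shDLGAP5-1 and 8.14 FPKM in shNC-1). The MVK call was lost without shNC-1 replicate 1 or 3 and without shDLGAP5-1 replicate 1 or 2.

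The next enzymes in the same stretch did not pass the test. PMVK, phosphomevalonate kinase, averaged 24.4 ± 1.31 FPKM in shDLGAP5-1 and 27.8 ± 4.07 FPKM in shNC-1 (SD, n = 3 each). IDI1, which isomerises isopentenyl diphosphate, had 10.8, 9.49 and 13.1 FPKM in shDLGAP5-1 and 13.5, 14.4 and 13.2 FPKM in shNC-1. Its groups just failed to overlap, with 13.1 FPKM in shDLGAP5-1 replicate 3 beside 13.2 FPKM in shNC-1 replicate 3. FDPS, farnesyl diphosphate synthase, was the most abundant member, at 80.0 ± 5.80 FPKM in shDLGAP5-1 and 88.4 ± 13.5 FPKM in shNC-1 (SD, n = 3 each), with a 95% interval of 0.733 to 1.13 for the ratio of FPKM + 1. MVD, the decarboxylase that makes isopentenyl diphosphate, went against its neighbours, with 36.9, 39.7 and 29.1 FPKM in shDLGAP5-1 and 24.6, 24.9 and 30.3 FPKM in shNC-1. Its log2 fold change was 0.39 (limma adjusted p = 0.0987). Without shDLGAP5-1 replicate 3, the library highest in leukocyte transcripts, MVD was called higher, at 0.51 (limma adjusted p = 0.0398).

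For all 3 enzymes that make squalene and close it to lanosterol, the highest shDLGAP5-1 value lay under the lowest shNC-1 value. The same held for 18.3% of all genes tested, and 2 of the 3 enzymes were called. FDFT1, squalene synthase, stood at 21.3, 21.8 and 25.8 FPKM in shDLGAP5-1 and 29.1, 28.4 and 36.3 FPKM in shNC-1. Its log2 fold change of −0.43 missed the threshold (limma adjusted p = 0.0578), and it was called lower without shDLGAP5-1 replicate 3 (limma adjusted p = 0.0468). SQLE, squalene epoxidase, had 18.4, 17.2 and 20.02 FPKM in shDLGAP5-1 and 24.7, 25.9 and 23.2 FPKM in shNC-1. It fell by 0.39 on the log2 scale (limma adjusted p = 0.0351), and the call held in a single leave-one-out fit, that without shDLGAP5-1 replicate 3. LSS, lanosterol synthase, had the widest interval among the called genes. It stood at 7.86, 17.4 and 14.8 FPKM in shDLGAP5-1, with replicate 1 well under the other libraries, and at 27.3, 26.3 and 24.2 FPKM in shNC-1. The log2 fold change was −0.97 (95% interval −1.58 to −0.36, limma adjusted p = 0.0339), and the call was lost without any 1 of the shNC-1 libraries. Without shDLGAP5-1 replicate 1 the value was −0.66, still called (limma adjusted p = 0.0169).

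The steps after lanosterol divided. Of 9 genes 2 fell, 1 rose and 6 did not pass. CYP51A1, the demethylase that acts first on lanosterol, had 16.5, 16.3 and 18.1 FPKM in shDLGAP5-1 and 30.7, 26.6 and 24.4 FPKM in shNC-1. It fell by 0.65 on the log2 scale (standard error 0.12, limma adjusted p = 0.00982). The CYP51A1 entry shares 22645 bases with AC000120.2, on the same strand, which averaged 0.0 FPKM in both groups. It shares 3030 bases with AC000120.3, also on that strand, at 0.22 FPKM in shDLGAP5-1 and 0.13 FPKM in shNC-1. NSDHL (chrX:152830967-152869729 in GRCh38, plus strand), a dehydrogenase of the sterol demethylation that follows, was the tightest of the falls, with 17.9, 17.0 and 17.4 FPKM in shDLGAP5-1 and 29.5, 30.4 and 34.0 FPKM in shNC-1. The shDLGAP5-1 libraries differed by less than 1 FPKM and lay far under the shNC-1 libraries. NSDHL fell by 0.81 on the log2 scale (limma standard error 0.10 and adjusted p = 0.00275). ACAT2, CYP51A1, NSDHL and TM7SF2 were called in the same direction in all 16 alternative fits tried, which none of the other members was. For TM7SF2 the fit with a filter of 5 FPKM adds no support. TM7SF2 passed that filter through its shDLGAP5-1 libraries alone, so its direction there was fixed in advance.

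TM7SF2 and LBR encode enzymes for the same reaction, the reduction of the sterol double bond left by CYP51A1, and LBR is also the lamin B receptor of the inner nuclear membrane. TM7SF2 (chr11:65111845-65116384 in GRCh38, plus strand) had 6.15, 7.73 and 5.22 FPKM in shDLGAP5-1 libraries, against 1.73, 1.76 and 2.38 FPKM in shNC-1 libraries. Every shDLGAP5-1 library lay above every shNC-1 library, and the mean was 3.25 times as high. TM7SF2 rose by 1.31 on the log2(FPKM + 1) scale, which understates the change of so low a gene (standard error 0.17, limma adjusted p = 0.00279). With a pseudocount of 0.1 the log2 fold change was 1.65. LBR had 24.2, 26.7 and 27.1 FPKM in shDLGAP5-1 and 21.2, 32.2 and 19.2 FPKM in shNC-1, so the groups overlapped (log2 fold change 0.13, limma adjusted p = 0.642). The log2 ratio of TM7SF2 over LBR within a library, which does not depend on library scaling except through the pseudocount, averaged −1.89 ± 0.26 in shDLGAP5-1 and −3.06 ± 0.50 in shNC-1 (SD, n = 3 each). The ratios of the groups did not overlap (exact two-sided permutation p = 0.1, also 0.1 when adjusted over the 3 pairs of genes compared, the smallest possible). TM7SF2 made up 20.3%, 22.5% and 16.1% of the summed FPKM of the pair in shDLGAP5-1 and 7.57%, 5.18% and 11% in shNC-1. The TM7SF2 entry meets that of VPS51, a tethering factor gene on the same strand, over 18 bases, and VPS51 averaged 37.4 FPKM in shDLGAP5-1 and 25.7 FPKM in shNC-1. Its part in the TM7SF2 values was not tested.

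The other late enzymes showed no called change. MSMO1, the sterol methyl oxidase, had 16.3, 16.01 and 14.1 FPKM in shDLGAP5-1 and 16.6, 17.7 and 17.6 FPKM in shNC-1, close together though without overlap. HSD17B7, the keto reductase of the same demethylation complex, averaged 4.78 ± 0.14 FPKM in shDLGAP5-1 and 4.98 ± 0.15 FPKM in shNC-1 (SD, n = 3 each), with a 95% interval of 0.815 to 1.15 for the ratio of FPKM + 1. Its transcribed pseudogene copy HSD17B7P2 averaged 1.26 FPKM in shDLGAP5-1 and 0.61 FPKM in shNC-1, and whether reads were shared was not tested. SC5D, a sterol desaturase, stood at 2.93, 3.68 and 4.70 FPKM in shDLGAP5-1 and at 6.09, 4.42 and 4.21 FPKM in shNC-1, with overlap. DHCR7, which carries out a last reduction to cholesterol, had 10.2, 14.1 and 12.6 FPKM in shDLGAP5-1 and 15.5, 17.9 and 16.7 FPKM in shNC-1. Its groups did not overlap, but its log2 fold change of −0.42 missed the threshold (limma adjusted p = 0.0654). EBP, the isomerase that moves the sterol ring double bond, varied most among libraries. It had 51.4, 39.3 and 13.6 FPKM in shDLGAP5-1 and 17.6, 17.6 and 34.0 FPKM in shNC-1, a coefficient of variation of 55.6% in shDLGAP5-1 and 41.1% in shNC-1. The lowest EBP value was that of shDLGAP5-1 replicate 3, and without that library the log2 fold change was 1.00 in place of 0.45, still without a call (limma adjusted p = 0.0614). The EBP entry shares 6911 bases with AF196969.1, a protein-coding entry on the same strand. AF196969.1 averaged 0.43 FPKM in shDLGAP5-1 and 0.33 FPKM in shNC-1, and its part in the EBP values was not tested.

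**Figure D2:**
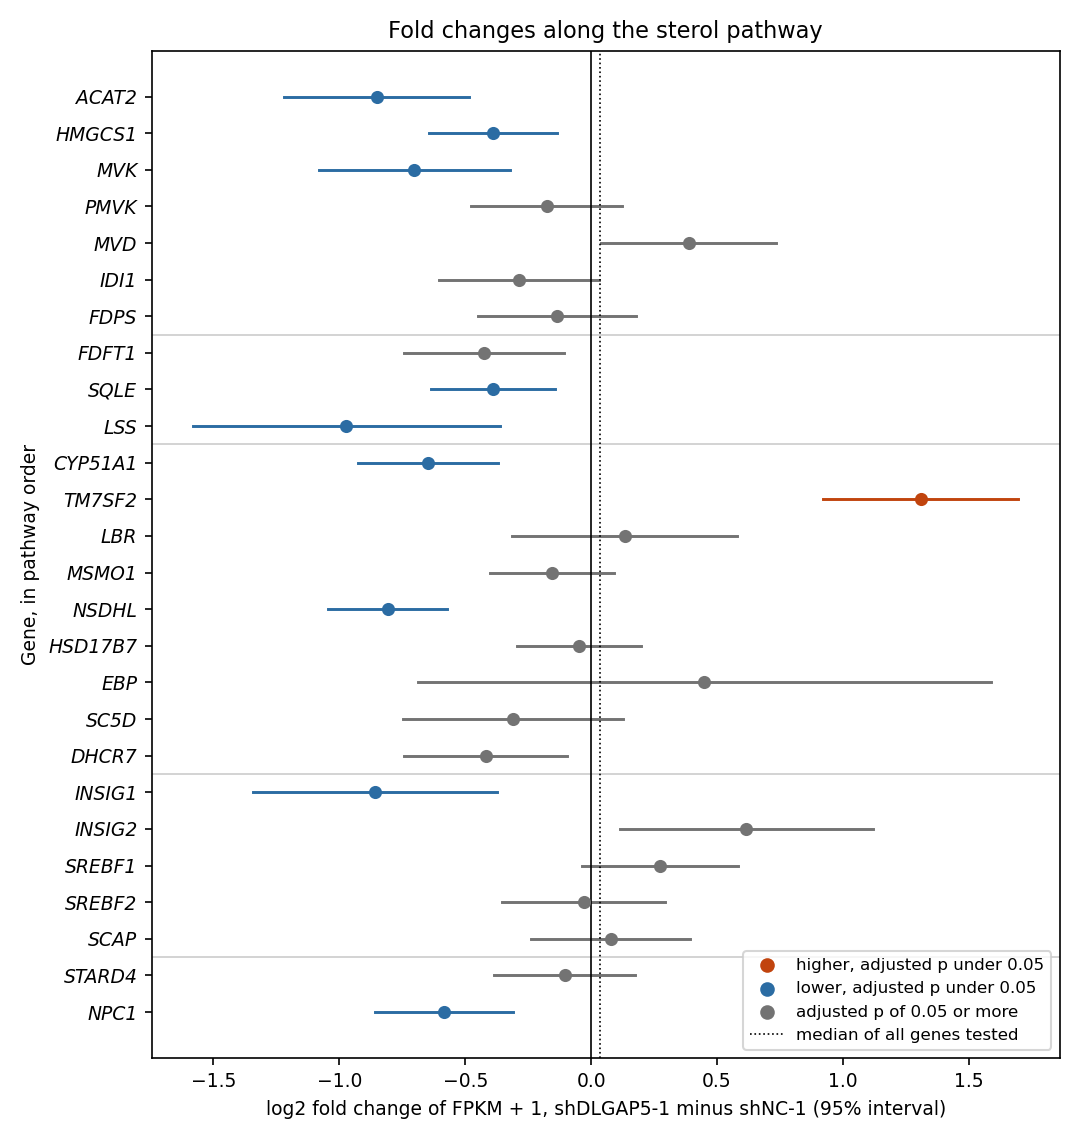
Log2 fold change of FPKM + 1, shDLGAP5-1 minus shNC-1, for the 26 sterol genes in pathway order, with 95% intervals from limma. The dotted line marks the median of all genes tested, 0.03. Genes called higher are red, genes called lower blue and all others grey, and TM7SF2 at 1.31 stands opposite the falls, which run from −0.97 for LSS to −0.39 for SQLE.

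Among the genes of SREBP control 1 of 5 passed the test. INSIG1 had 7.15, 5.24 and 7.21 FPKM in shDLGAP5-1 and 9.21, 15.2 and 14.0 FPKM in shNC-1. It fell by 0.86 on the log2 scale (standard error 0.21, limma adjusted p = 0.0244). The call did not hold once shNC-1 replicate 2, shNC-1 replicate 3 or shDLGAP5-1 replicate 2 was left out. INSIG2, its paralog, stood at 7.99, 8.10 and 8.18 FPKM in shDLGAP5-1 and at 3.77, 7.38 and 4.20 FPKM in shNC-1. Every shDLGAP5-1 value lay above every shNC-1 value, but shNC-1 replicate 2 was near them. The log2 fold change was 0.62 (95% interval 0.12 to 1.12, limma adjusted p = 0.0752), and INSIG2 was called higher without shNC-1 replicate 2 (limma adjusted p = 0.0181). The balance of the paralogs differed by group. INSIG2 made up 52.8%, 60.7% and 53.2% of their summed FPKM in shDLGAP5-1 and 29.1%, 32.8% and 23.0% in shNC-1, so that INSIG2 was the more abundant in each shDLGAP5-1 library and INSIG1 in each shNC-1 library. The log2 ratio of INSIG2 over INSIG1 averaged 0.28 ± 0.23 in shDLGAP5-1 and −1.19 ± 0.30 in shNC-1 (SD, n = 3 each), a difference of 1.47 (exact two-sided permutation p = 0.1, adjusted over 3 pairs 0.1).

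The SREBP genes themselves and SCAP did not pass. SREBF1 had 22.9, 29.8 and 22.8 FPKM in shDLGAP5-1 and 20.01, 21.6 and 19.8 FPKM in shNC-1, without overlap (log2 fold change 0.28, limma adjusted p = 0.171). SREBF2 had 25.2, 34.1 and 33.3 FPKM in shDLGAP5-1 and 32.4, 31.9 and 29.5 FPKM in shNC-1, with shDLGAP5-1 replicate 1 the lowest of all libraries. Its ratio of FPKM + 1 had a 95% interval of 0.783 to 1.23, and its estimate of −0.03 changed sign with quantile normalization (0.04) and without shDLGAP5-1 replicate 1 (0.11). SCAP averaged 21.2 ± 3.35 FPKM in shDLGAP5-1 and 19.8 ± 0.12 FPKM in shNC-1 (SD, n = 3 each), with an estimate of 0.08, 0.01 without shDLGAP5-1 replicate 3, that also changed sign, being −0.03 when every column was given the same total and −0.04 with median-ratio scaling. The log2 ratio of SREBF1 over SREBF2 was −0.28 ± 0.22 in shDLGAP5-1 and −0.59 ± 0.07 in shNC-1 (SD, n = 3 each). The groups barely separated, at −0.53 for shDLGAP5-1 replicate 3 and −0.54 for shNC-1 replicate 2 (exact two-sided permutation p = 0.1, adjusted over 3 pairs 0.1).

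**Figure D3:**
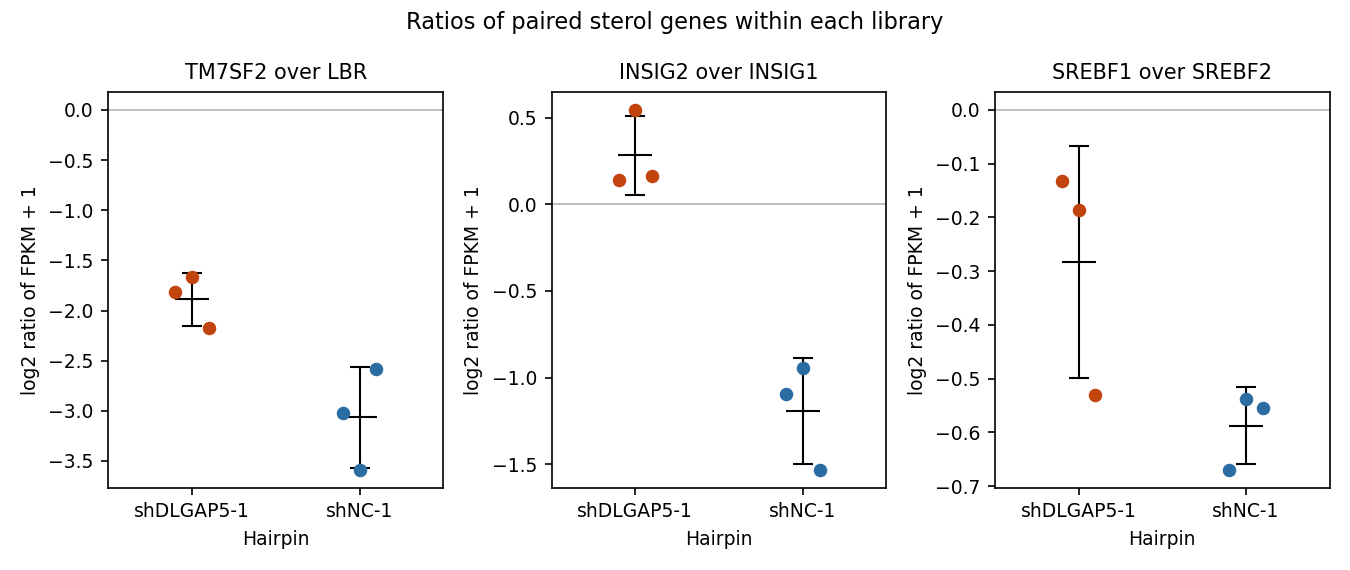
Log2 ratio of FPKM + 1 within each library for 3 pairs of sterol genes with the same reaction or role, with 1 point per library and bars for the mean and SD (n = 3), shDLGAP5-1 left of shNC-1. INSIG2 over INSIG1 lay between 0.14 and 0.54 in shDLGAP5-1 and between −1.53 and −0.95 in shNC-1. The vertical scales differ between panels.

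Of the 2 genes for cholesterol movement 1 fell. NPC1, which exports cholesterol from late endosomes and lysosomes, had 18.6, 21.4 and 18.9 FPKM in shDLGAP5-1 and 28.2, 33.5 and 28.04 FPKM in shNC-1. It fell by 0.58 on the log2 scale (standard error 0.12, limma adjusted p = 0.0133), in all but 1 of the 16 alternative fits, the fit without shNC-1 replicate 2. Its entry shares 25624 bases of gene span, introns included, with RMC1, on the other strand. RMC1 averaged 10.7 FPKM in shDLGAP5-1 and 14.8 FPKM in shNC-1, and whether reads were shared was not tested. STARD4, a carrier of cholesterol between membranes, averaged 7.38 ± 0.23 FPKM in shDLGAP5-1 and 8.05 ± 0.92 FPKM in shNC-1 (SD, n = 3 each), with overlap (limma adjusted p = 0.552). No receptor that takes up lipoprotein was among the 26 genes.

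Ordered by mean level in shDLGAP5-1 libraries, FDPS stood first at 80.0 FPKM, followed by MVD at 35.2, EBP at 34.8 and SREBF2 at 30.9, and HSD17B7 at 4.78 and SC5D at 3.77 FPKM stood last. In shNC-1 libraries FDPS was again first at 88.4 FPKM, followed by NSDHL at 31.3, FDFT1 at 31.3 and SREBF2 at 31.3, and TM7SF2 was last at 1.96 FPKM. FDPS in both groups, and TM7SF2 in shNC-1, stood clear of the gene next in order, while the other neighbours named did not differ beyond their spread. The fewest fragments lay behind TM7SF2, about 78 in its lowest library by an approximate depth, and about 99 behind SC5D, so their levels carry more counting error than that of FDPS.

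Promoters were read from RefSeq sequences of the GRCh38.p14 assembly, 250 bases before to 50 after the start, for 23 members (all but ACAT2, FDFT1 and SQLE). For some members this start is not that of the gene span with the FPKM values. The IDI1 window, chr10:1056655-1056954, lies outside its span, chr10:1039152-1049170 (minus strand). The DHCR7 window, chr11:71448344-71448643, lies inside its span, chr11:71428193-71452868 (minus strand). Searched on both strands, the sterol regulatory element TCACNCCAC, a sequence bound by SREBPs, was found as an exact match in 1 of 23 (4.35%), that of SREBF2. It was found in 1.15% of 27305 promoters and 1.15% of the 9256 promoters of genes tested here. CCAAT, the box bound by NF-Y, which works with SREBPs at sterol promoters, was found in 15 of 23 (65.2%) beside 35.7% of all promoters and 37.2% of those of genes tested. GGGCGG, the box bound by SP1, was in 21 of 23 (91.3%) beside 44.6% and 72.0%, and CANNTG, the E-box, in 13 of 23 (56.5%) beside 68.9% and 59.0%. These are matches of letters, not sites shown to be bound, and E-box and CCAAT matches overlap where NSDHL reads CCAATTGG. Sequences that differ from these patterns, or that lie outside the window, were not counted. A promoter without a match may therefore still hold an SREBP site. Promoters are shown for MVK and NSDHL, which fell and hold 5 CCAAT matches each, and for INSIG1, the SREBP target that fell. They are also shown for TM7SF2, the gene that rose, and for SREBF2, with the single exact match of the sterol regulatory element. Their positions are chr12:109573544-109573843 (plus strand), chrX:152830813-152831112 (plus strand), chr7:155297628-155297927 (plus strand), chr11:65111622-65111921 (plus strand) and chr22:41832855-41833154 (plus strand). Capitals mark CCAAT on either strand (CCAAT or ATTGG) and, in SREBF2, the match TCACCCCAC.
MVK: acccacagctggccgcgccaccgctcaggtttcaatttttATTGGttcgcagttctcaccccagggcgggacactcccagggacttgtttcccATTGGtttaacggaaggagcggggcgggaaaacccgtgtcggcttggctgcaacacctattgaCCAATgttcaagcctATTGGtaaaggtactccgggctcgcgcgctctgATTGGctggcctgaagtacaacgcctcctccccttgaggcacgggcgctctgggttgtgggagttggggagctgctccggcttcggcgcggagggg
NSDHL: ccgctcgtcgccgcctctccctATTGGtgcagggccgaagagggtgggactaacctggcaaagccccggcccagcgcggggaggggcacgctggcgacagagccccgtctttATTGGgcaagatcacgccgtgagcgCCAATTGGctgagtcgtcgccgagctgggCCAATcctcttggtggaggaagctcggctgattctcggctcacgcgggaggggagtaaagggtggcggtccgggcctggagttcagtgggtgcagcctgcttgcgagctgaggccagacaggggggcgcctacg
INSIG1: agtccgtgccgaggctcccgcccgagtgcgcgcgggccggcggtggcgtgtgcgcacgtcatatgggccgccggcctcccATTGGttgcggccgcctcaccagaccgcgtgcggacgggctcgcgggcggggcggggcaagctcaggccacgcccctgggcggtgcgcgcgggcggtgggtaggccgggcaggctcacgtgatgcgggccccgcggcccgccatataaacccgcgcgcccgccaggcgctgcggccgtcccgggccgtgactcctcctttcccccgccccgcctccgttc
TM7SF2: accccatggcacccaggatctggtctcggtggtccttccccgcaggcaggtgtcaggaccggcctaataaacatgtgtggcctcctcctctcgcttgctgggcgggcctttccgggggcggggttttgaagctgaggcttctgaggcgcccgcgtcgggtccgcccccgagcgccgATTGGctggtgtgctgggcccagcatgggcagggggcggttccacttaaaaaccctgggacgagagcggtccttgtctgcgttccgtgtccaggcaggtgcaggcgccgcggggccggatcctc
SREBF2: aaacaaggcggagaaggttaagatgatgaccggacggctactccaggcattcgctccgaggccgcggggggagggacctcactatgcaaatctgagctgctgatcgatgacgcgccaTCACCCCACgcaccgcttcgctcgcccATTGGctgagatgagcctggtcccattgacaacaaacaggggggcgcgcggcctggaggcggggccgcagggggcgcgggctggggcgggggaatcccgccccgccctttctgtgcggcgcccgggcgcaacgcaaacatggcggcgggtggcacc
In SREBF2 the element lies 133 to 125 bases before the start, with 18 bases between it and the CCAAT match that follows. TM7SF2, the gene that rose, holds 1 CCAAT match, and among the falls MVK and NSDHL hold 5 each, HMGCS1 2, LSS and INSIG1 1 each, and CYP51A1 and NPC1 0.

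Lists of neighbouring genes were read in the same fit. Of 16 fatty acid genes known as SREBP targets 6 fell (37.5%, against 9.52% of all genes tested) and none rose at the threshold. Their median log2 fold change was −0.40. FASN, fatty acid synthase, had 15.3, 19.4 and 21.8 FPKM in shDLGAP5-1 and 35.9, 33.7 and 29.1 FPKM in shNC-1 (log2 fold change −0.78, limma adjusted p = 0.0123). ACLY, which makes the acetyl-CoA used by both pathways, averaged 32.7 ± 7.35 FPKM in shDLGAP5-1 and 57.6 ± 3.90 FPKM in shNC-1 (SD, n = 3 each), and ACACA, acetyl-CoA carboxylase, had a log2 fold change of −0.65. Leaving out shNC-1 replicate 1 or 2 gave 0 calls in this list, leaving out shNC-1 replicate 3 gave 2, and leaving out shDLGAP5-1 replicate 1 or 2 gave 3.

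Of 17 genes of the isoprenoid branch, which leads from farnesyl diphosphate to protein prenylation, dolichol and coenzyme Q, 2 fell (11.8%, near the 9.52% of all genes called lower) and none rose (median −0.28). In 7 (41.2%) every shDLGAP5-1 library lay under every shNC-1 library, against 18.3% of all genes tested. The log2 fold change was negative in 15 of the 17, beside 5933 of all 12714 genes tested. DOLK, dolichol kinase, had 5.79, 6.30 and 6.18 FPKM in shDLGAP5-1 and 8.99, 10.6 and 11 FPKM in shNC-1 (log2 fold change −0.65, limma adjusted p = 0.00933). ZMPSTE24, a protease of prenylated proteins, fell by 0.54, and DHDDS, a subunit of the enzyme for dolichol precursors, had −0.48 without a call (limma adjusted p = 0.0522). The count was 0 without shNC-1 replicate 2, 1 without shDLGAP5-1 replicate 2, 5 when every column was given the same total and 7 with median-ratio scaling. Of 4 tested genes of sterol esters and oxysterols, from a list of 9, 2 fell (50%, against 9.52% of all genes tested). NCEH1, a hydrolase of cholesterol esters, fell by 0.64 and SOAT1, which makes the esters, by 0.41. HSD3B7, an enzyme of bile acid synthesis, had −0.11 without a call. The NCEH1 values were 29.8, 29.1 and 28.3 FPKM in shDLGAP5-1 and 49.9, 48.6 and 39.8 FPKM in shNC-1. The esters count was 1 when replicate 1 or 2 of either group was left out. CH25H and CYP27A1, too low to be tested, lay higher in every shDLGAP5-1 library than in any shNC-1 library. CH25H did not exceed 0.21 FPKM and CYP27A1 did not exceed 0.13 FPKM. SOAT2, CYP7B1 and CEL, also untested, overlapped between groups.

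The shares called in either direction, in the lists nearer to the control and export of sterols, were near or under the 24.8% of all genes. Of 12 genes of SREBP proteases and of the sterol-regulated degradation of enzymes 1 fell (8.33%), VCP, the ATPase that pulls proteins from the membrane, at −0.48. MBTPS2, the protease that makes the second SREBP cut, had 5.16, 6.27 and 7.22 FPKM in shDLGAP5-1 and 10.6, 9.10 and 7.85 FPKM in shNC-1, without a call (limma adjusted p = 0.0586), and RNF139, a ubiquitin ligase of that membrane, had 0.31 (limma adjusted p = 0.0694). The count was 0 without any 1 shNC-1 library, 2 without shDLGAP5-1 replicate 1 or 3, and 3 with median-ratio scaling or the length trend removed. Of 7 tested genes of LXR factors and sterol export, from a list of 10, NCOA5, a nuclear receptor coregulator, was the single call. That share, 14.3%, was under the 24.8% of all genes called and above the 9.52% called lower. NCOA5 fell by 0.56, a call lost without any 1 shNC-1 library or shDLGAP5-1 replicate 2. The LXR gene NR1H2 had 0.37 and its partner RXRB 0.34, both without a call (limma adjusted p = 0.0957 and 0.0972). The median of this list was 0.22, and 0.09 without shDLGAP5-1 replicate 3. ABCG1 and MYLIP, too low to be tested, lay higher in every shDLGAP5-1 library, at no more than 0.12 and 1.55 FPKM. APOE, also untested, overlapped between groups. Of 18 tested genes of lipoprotein receptors and endosomal sterol routing, from a list of 20, 2 rose and 2 fell (22.2% called). GRAMD1C, of a family that moves cholesterol from the plasma membrane to the endoplasmic reticulum, had 3.88, 3.74 and 3.75 FPKM in shDLGAP5-1 and 1.10, 1.35 and 1.32 FPKM in shNC-1, a rise of 1.09 (limma adjusted p = 0.00133). GRAMD1A, of the same family, rose by 0.52, and OSBPL6, an oxysterol-binding relative, fell by 0.61. The other fall was that of LRP8, a lipoprotein receptor, at −0.76, named after its values were seen. The 4 calls were 1 without shNC-1 replicate 1 or 2 and 2 without shNC-1 replicate 3 or shDLGAP5-1 replicate 1.

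**Figure D4:**
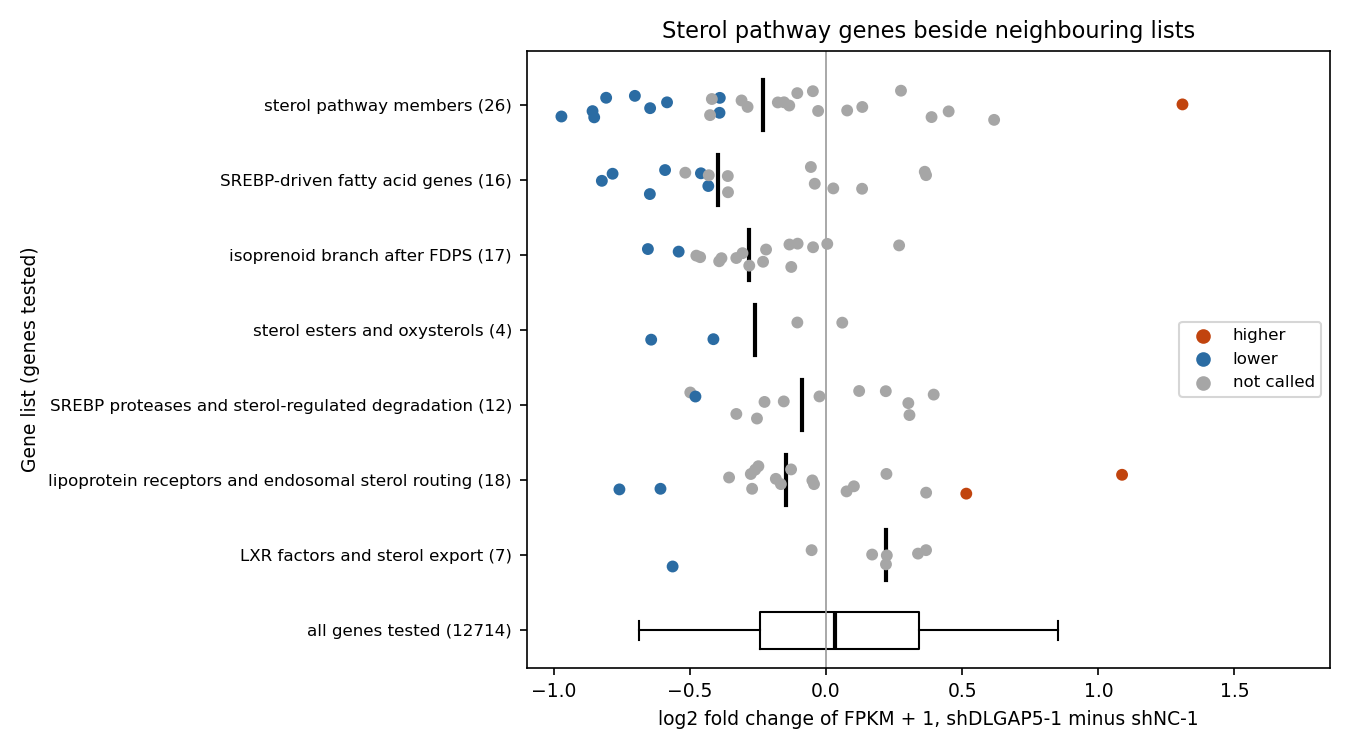
Log2 fold change of FPKM + 1, shDLGAP5-1 minus shNC-1, for each tested gene of the sterol pathway and of 6 neighbouring lists, with a black bar at each list's median. The box for all 12714 genes tested spans the quartiles, with whiskers at percentiles 5 and 95. The medians run from −0.40 for the fatty acid genes to 0.22 for LXR factors and sterol export, with −0.23 for the sterol pathway.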

How the data were processed

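RNA was sequenced from T24 cells, 3 libraries per hairpin, grouped by title. The authors deposited 1 table of 58825 genes, taken here as FPKM from its values (not whole, unequal totals, low single-exon genes at steps inverse to length), since its header names no unit. Columns named with NC were given to shNC-1 and the others to shDLGAP5-1. For the aligner, annotation and strand setting the labels and header say nothing. GENCODE release 29 holds 58552 of the gene identifiers, 50987 with the same GRCh38 coordinates. Depth, from the steps, was about 13700000 to 18300000 fragments in shDLGAP5-1 and 21600000 to 27500000 in shNC-1. Only 17.2% to 27.3% of low values came out whole within 0.05, so no count test was run.

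The 12714 genes that reached 1 FPKM in 3 or more libraries entered limma 3.58.1 (R 4.3.3, trended variance) on log2(FPKM + 1), group as the only term, Benjamini-Hochberg adjusted p under 0.05. The code was tested on simulated data. Exact permutation tests were two-sided. All 26 members were named, with up to 3 genes of smallest p from each of 6 neighbouring lists. Members and lists were chosen with earlier results of these data known. Alternatives were other pseudocounts, filters and scalings, removal of a length trend (lowess, span 0.3), a replicate block, a robust variance prior and leaving out each library.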

Additional observations from a re-analysis of the deposited data

How the results depend on the processing

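Of 414 member fold changes over the 16 alternative fits, 365 kept their direction and side of the threshold, 34 lost a call, 10 gained one and 5 changed sign, none of the last with a call. Those were SCAP at −0.0284 with the same total and −0.0397 with median-ratio scaling, SREBF2 at 0.0367 with quantile normalization, and SREBF2 (−0.105 to 0.107) and LBR (−0.0081 to 0.350) over the fits without 1 library, SREBF2 without shDLGAP5-1 replicate 1 and LBR without shNC-1 replicate 3. Fits without 1 library hold fewer samples. They gave 4 to 9 member falls, 1 to 2 member rises and a member median of −0.27 to −0.19, with 879 to 1489 genes called higher and 447 to 1317 lower over all genes. DLGAP5 ran from −2.58 to −2.19. In these fits the calls numbered 0 to 2 in the SREBP protease list, 0 to 1 in LXR and export, 1 to 3 in receptors and routing, 1 to 2 in esters, 0 to 3 in the isoprenoid branch and 0 to 5 in fatty acid genes. In the same order the medians ran from −0.15 to −0.07, 0.09 to 0.32, −0.16 to −0.05, −0.27 to −0.25, −0.34 to −0.23 and −0.50 to −0.35. The difference of log2 ratios ran from 0.91 to 1.42 for TM7SF2 over LBR, 1.305 to 1.598 for INSIG2 over INSIG1 and 0.23 to 0.43 for SREBF1 over SREBF2.

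Without a filter 31433 genes were tested, with 4 member falls and 769 falls over all genes, against 1211 as reported. The calls were then 0 in the SREBP protease list, 0 in LXR and export and 2 in receptors and routing. The fatty acid genes had 1 call and the esters list 3, with an esters median of 0.0034. A filter of 5 FPKM gave 1168 genes higher. The same total gave 1261 genes higher, a member median of −0.34, 5 isoprenoid calls, and medians of −0.20 (proteases), −0.24 (routing), −0.36 (esters), −0.38 (isoprenoid) and −0.50 (fatty acid). Median-ratio scaling gave 1917 genes lower, a member median of −0.35, 3 protease and 7 isoprenoid calls, and medians of −0.21, −0.25, −0.37, −0.39 and −0.51 in the same order. Quantile normalization gave 2 protease calls. With the length trend removed, 1890 genes were lower, the member median was −0.33, the esters median −0.30, and the calls 3 for proteases and 6 for the isoprenoid branch. Of all calls, 61.6% were higher as reported, 52.0% with the filter of 5 FPKM, 47.8% with the same total and 41.8% by median ratio, 50% without the length trend and 50.8% on quantile-normalized values. The cause of these differences was not tested.

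Libraries of the same number share only a number, with deviations correlated at −0.155, 0.021 and −0.157. With the replicate block 5 members fell and 1 rose, with the calls of HMGCS1, SQLE, LSS and INSIG1 lost, and over all genes 951 were higher and 513 lower. The block gave 0 protease, 0 LXR, 1 routing, 1 ester, 1 isoprenoid and 2 fatty acid calls. With the length trend removed as well, the block gave 1171 genes higher, a member median of −0.33, an esters median of −0.30, and 0 protease, 2 routing and 1 ester calls. No library correlated best with its own number.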

Other observations

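TMEM97, an endoplasmic reticulum protein of sterol handling from the routing list, also varied within groups, and was singled out after its values were seen. It had 15.7, 16.5 and 3.82 FPKM in shDLGAP5-1 libraries and 12.1, 17.7 and 11.1 FPKM in shNC-1 libraries (log2 fold change −0.36, limma adjusted p = 0.624). Its lowest value, like that of EBP at 13.6 FPKM, was that of shDLGAP5-1 replicate 3, the library highest in leukocyte transcripts. SCD, the desaturase for stearoyl-CoA, and ACSS2, an acetyl-CoA synthetase, ran against the fatty acid genes that fell. SCD averaged 41.6 ± 4.15 FPKM in shDLGAP5-1 and 32.0 ± 2.60 FPKM in shNC-1 (SD, n = 3 each), and ACSS2 averaged 17.3 ± 2.97 FPKM in shDLGAP5-1 and 13.1 ± 0.46 FPKM in shNC-1 (SD, n = 3 each). Neither passed the test (limma adjusted p = 0.0605 and 0.0927), though in both every shDLGAP5-1 library lay above every shNC-1 library.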
